A study of Mus musculus with 13 samples.

Results

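The Ets factors described here are 10 genes of the 21100 in the expression table, Spib, Spi1, Ehf, Elf1, Elf3, Elf5, Ets1, Ets2, Etv4 and Etv5, found by their symbols. All 10 were in the table, and 9 had enough reads in enough tumors to enter the comparison of the tumor models, since Elf5 had no value in the Tp-BCC tumors. The members were selected on measured values: they were chosen by a look at the log2 fold changes between the models in these same tumors, in which Spib was among the genes that stood apart. Their differences between the models are therefore described and not tested, and the tests below concern other genes or the spread between tumors of a single model. The lists of other genes were also fixed with earlier results of these data known, so their tests are not free of that knowledge.

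Basal cell carcinoma (BCC) is a skin cancer driven by Hedgehog signaling, and its mouse models are needed to evaluate treatments. The study asked how a transplantable model (Tp-BCC) compares with the genetically engineered model it came from (GEM-BCC). The 9 GEM-BCC tumors arose intradermally in 7 female Ptch1+/- K14-CreER2 p53fl/fl mice (the sample labels' spelling, written CreERT2 in the study's text) after 3 intraperitoneal injections of 300 µg tamoxifen and 4 Gy of X-ray, so that p53 was lost only from cells in which the keratin 14 promoter drove the Cre enzyme. The 4 Tp-BCC tumors grew under the skin of 4 female Ptch1+/-p53fl/fl mice, which carry no Cre, after inoculation of 2000000 tumor cells. All mice of both groups thus carried 1 inactive copy of Ptch1 and floxed p53 and had a working immune system, and their ages were not given in the sources used here. The Tp-BCC tumors all go back to 1 single GEM-BCC tumor, so they are 4 hosts of 1 tumor lineage. Tumors GEM2 and GEM3 shared a mouse, as did GEM7 and GEM8.

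Poly(A) RNA was sequenced with 1 library per tumor, and levels are given as CPM, RSEM expected counts scaled to a common library total. The GEM-BCC libraries held 28075317 to 32629102 counts each and the Tp-BCC libraries 15388027 to 17494912. GEM-BCC libraries formed 1 batch and Tp-BCC libraries another, and a difference between the models and one between the batches cannot be told apart. Across genes, log2 CPM less each gene's own mean followed transcript GC content with a Spearman rho below 0 in TP1 (−0.389) and TP3 (−0.473) and above 0 in TP2 (0.594) and TP4 (0.589), while the GEM-BCC tumors lay between −0.310 and 0.365. The tissue label was borne out by its defining genes. Krt5, a keratin of basal epithelium, had a median of 7579 CPM in GEM-BCC and 6214 CPM in Tp-BCC, and Krt17, a keratin of basaloid tumors and hair follicles, 2787 and 3609 CPM. Of 10 genes of basal carcinoma epithelium, 1, the Hedgehog factor Gli2, rose in Tp-BCC and none fell at an adjusted p under 0.05 in edgeR, the test behind every statement below that a gene rose or fell. Over all 14390 tested genes, 11.1% rose and 8.35% fell.

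Ets factors are transcription factors that share a DNA-binding domain, the Ets domain, which reads the core letters GGAA, and they differ in the letters they prefer around the core and in the cells that make them. Spi1 (PU.1) directs macrophages, granulocytes and B cells, and its close relative Spib works in B cells, in plasmacytoid dendritic cells and in the M cells of intestinal epithelium. Ehf, Elf3 and Elf5 form the epithelium-specific branch, which takes part in the differentiation of keratinocytes and glands. Etv4 and Etv5 of the Pea3 branch are switched on by fibroblast growth factor (Fgf) and Erk signaling, and Ets1, Ets2 and Elf1 are made in many tissues.

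Promoter sequences show the DNA at the starts of the genes that the values below turn on. RefSeq (GRCm38.p6) gave a promoter, 250 bases before to 50 bases after the start, for 6 of the 10 members, and 2 are shown, that of Spib (chr7:44532022-44532321, minus strand) as the member whose levels did not overlap between the models and that of Elf3 (chr1:135258423-135258722, minus strand) as a factor of the epithelial branch. Both are read 5′ to 3′ on the strand of the gene, and capitals mark the Ets core, GGAA, or its reverse complement, TTCC.
Spib: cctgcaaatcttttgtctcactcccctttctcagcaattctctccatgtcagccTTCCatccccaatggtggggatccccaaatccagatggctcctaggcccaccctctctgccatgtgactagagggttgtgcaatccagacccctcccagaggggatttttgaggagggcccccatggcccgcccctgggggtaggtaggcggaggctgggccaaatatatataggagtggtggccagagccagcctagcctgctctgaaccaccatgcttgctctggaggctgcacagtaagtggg
Elf3: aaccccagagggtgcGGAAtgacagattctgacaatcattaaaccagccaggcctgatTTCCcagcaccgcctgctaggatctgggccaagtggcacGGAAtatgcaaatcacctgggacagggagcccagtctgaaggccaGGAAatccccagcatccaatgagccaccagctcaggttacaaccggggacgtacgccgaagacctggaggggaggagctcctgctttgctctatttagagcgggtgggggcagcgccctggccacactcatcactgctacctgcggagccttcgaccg
The Spib window held 1 match to the core, on the opposite strand and 196 bases before the start, and the Elf3 window 4 matches. Both strands were searched, and of the 32851 promoters of this length in the table, 95.98% held at least 1 match, with a median of 3. The other members with a promoter held 0 to 6 matches per window, with 0 in 1 Etv5 window and 6 in the other. None of these windows held GAGGAA (a form that PU.1 and Spib favor, in 28.28% of all promoters), CCGGAA (in 14.9%) or the Gli site GACCACCCA (in 0.25%), where the first pair contain the GGAA core themselves. A match is a run of letters and was not measured as a binding site.

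Levels of different genes were set side by side per kilobase, by the median length of each gene's annotated protein-coding transcripts. That length was 544 bases for Spi1, 853 for Spib, 2377 for Etv4 and 2409 for Ets2. Which transcripts the tumors made was not measured, so the order below depends on these lengths. Per kilobase, Ets2 was the highest of the 10 in both models, at 248 ± 76.6 CPM per kb (SD, n = 9) in GEM-BCC and 240 ± 56.5 (n = 4) in Tp-BCC. In GEM-BCC the order went on with Etv4 (33.9 CPM per kb), Elf1 (17.0), Ets1 (16.3), Etv5 (13.4), Spib (8.82), Spi1 (7.22), Ehf (2.25), Elf3 (0.642) and Elf5 (0.306). The ranges over tumors of neighbors in this order overlapped, apart from Ets2, which lay above all others in every tumor. In Tp-BCC Spib had moved up to the second place, at 178 ± 78.2 CPM per kb, and its range of 102 to 257 CPM per kb overlapped that of Ets2 (193 to 317). Etv4 (33.4 CPM per kb), Ets1 (28.0), Etv5 (16.1), Spi1 (11.9) and Elf1 (9.27) followed with overlapping ranges, and Elf3 (0.117) and Ehf (0.0632) lay below all of them.

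**Figure D1:**
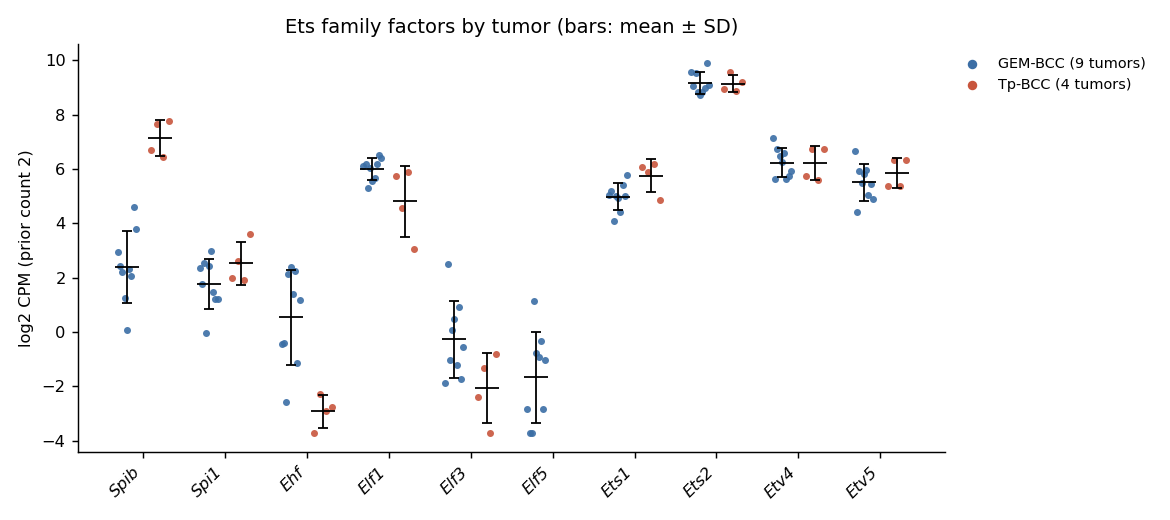
Level of each of the 10 Ets factors in each tumor, as log2 CPM with a prior count of 2, with GEM-BCC in blue (9 tumors), Tp-BCC in red (4 tumors) and black bars for the mean ± SD. Every Tp-BCC tumor lies above every GEM-BCC tumor for Spib, while the groups overlap for the other members with values in both models, and Elf5 has no Tp-BCC points.

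Spib was 7.69, 5.34, 4.59, 2.31, 0.971, 4.91, 4.10, 24.0 and 13.8 CPM in GEM1 to GEM9 and 103, 200, 87.0 and 219 CPM in TP1 to TP4. The groups did not overlap, and the lowest Tp-BCC tumor lay above the highest GEM-BCC tumor, GEM8. The log2 fold change (Tp-BCC over GEM-BCC) was 4.34 (SE 0.583). Over all tested genes, 5.5% were higher in Tp-BCC with no overlap and 4.45% lower with none. The call rule used here has the thresholds of the study, an adjusted p under 0.05 and an absolute log2 fold change over 2, but sets them on edgeR fold changes without shrinkage, whereas the study used shrunken DESeq2 fold changes. It was passed by 2.36% of all tested genes in the higher and 3.21% in the lower direction. Of the 9 members in the comparison, 1, Spib, passed it as higher and 1, Ehf, as lower. As these values belong to the contrast by which the members were chosen, nothing is read from the counts.

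Spib varied widely within GEM-BCC. Its SD of log2 CPM was 1.32 over the 9 tumors, larger than that of 95.1% of tested genes (median 0.435), and 0.668 over the 4 Tp-BCC tumors, larger than that of 62.4% (median 0.575). GEM8 had 5.85 times the Spib of GEM7 from the same mouse, whereas GEM3 had 0.859 times that of GEM2. Within Tp-BCC the tumors fell into pairs, with a mean of 95.2 CPM in TP1 and TP3 and 209 CPM in TP2 and TP4, the same pairs that differed in the GC trend. The gap between the pairs was 1.14 on the log2 scale and 0.21 after each tumor's GC trend had been removed, a correction chosen once the values were known. The difference between the models was 4.45 (SE 0.586) on that corrected scale, against 4.73 on the same scale without the correction.

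Among cell types known for Spib, B cells left few reads in either model. Ms4a1 (CD20) and Pax5, the factor that fixes B cell identity, had at most 1 count each in any Tp-BCC tumor, where Spib had 1453 to 3107 counts. Of 14 B cell markers, 13 had at most 15 counts in every Tp-BCC tumor and only 3 could be tested. Of these Ebf1, a factor that is also made outside the B lineage, rose (log2 fold change 1.19, SE 0.289, edgeR adjusted p = 0.0104), and Cd22, an inhibitory receptor of B cells, had a log2 fold change of 0.13 (SE 0.463, edgeR adjusted p = 0.872). Ebf1 ranged from 14.3 to 28.8 CPM in GEM-BCC and was 52.8, 43.4, 74.4 and 16.8 CPM in TP1 to TP4. The summed CPM of the list was 17.4 to 38.9 over GEM-BCC tumors and 18.9 to 77.2 over Tp-BCC tumors, most of it Ebf1. One plasma cell gene, Jchain, chosen after its values were seen, reached 306 counts in GEM5 and at most 7 in Tp-BCC. Which cells made Spib was not tested.

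Plasmacytoid dendritic cell and M cell markers are listed next, the other settings in which Spib is known. Siglech, the surface lectin of plasmacytoid dendritic cells, reached at most 4 counts in a GEM-BCC tumor and at most 2 in a Tp-BCC tumor. Of 10 tested genes of that list, 1 rose and 1 fell, while 1 passed without TP1, TP2 or TP3 and 0 without TP4. As 11.1% of all tested genes rose and 8.35% fell, nothing is read from counts this small. Bst2, an interferon-induced membrane protein chosen after its values were seen, rose by 1.20 (SE 0.286, edgeR adjusted p = 0.00969). Its levels, 3.31 to 9.77 CPM in GEM-BCC and 10.5 to 21.3 CPM in Tp-BCC, did not overlap. Ly6d, which is also made in stratified epithelium, fell by 4.10 (SE 1.23, edgeR adjusted p = 0.0293), from 3.73 to 956 CPM in GEM-BCC to 6.59 to 16.5 CPM in Tp-BCC, and missed the threshold when any single Tp-BCC tumor was left out (adjusted p of 0.0606 to 0.0714) and after removal of the GC trend (limma adjusted p = 0.0619). Tcf4 and Runx2, factors that plasmacytoid dendritic cells share with many other cells, had log2 fold changes of 0.47 and 0.51 (SE 0.356 and 0.262, edgeR adjusted p = 0.361 and 0.180). The summed CPM of the list was 181 to 1152 over GEM-BCC tumors and 160 to 428 over Tp-BCC tumors.

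Gp2, the uptake receptor that defines mature M cells, had no value in any tumor. Of the 8 tested M cell markers, 1 fell and none rose, where 8.35% of all tested genes fell and 11.1% rose. The one that fell was Prnp, the prion protein, chosen after its values were seen (log2 fold change −0.79, SE 0.214, edgeR adjusted p = 0.0181). Marcksl1 and Anxa5, which many cell types make, had log2 fold changes of −0.63 (SE 0.248, adjusted p = 0.0870) and 0.50 (SE 0.213, adjusted p = 0.108) in the same edgeR fit. Marcksl1 passed without TP4 (adjusted p = 0.0127), with library sizes alone (0.0273), in DESeq2 (0.0445) and after removal of the GC trend (limma, 0.000680), and Anxa5 in the last of these (0.0414). Sox8, a factor needed for M cell maturation and named after its values were seen, had 27 to 716 counts in the GEM-BCC tumors, and its 74 to 141 counts in the Tp-BCC tumors lay within that range. The summed CPM of the list was 516 to 778 over GEM-BCC tumors and 456 to 695 over Tp-BCC tumors.

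**Figure D2:**
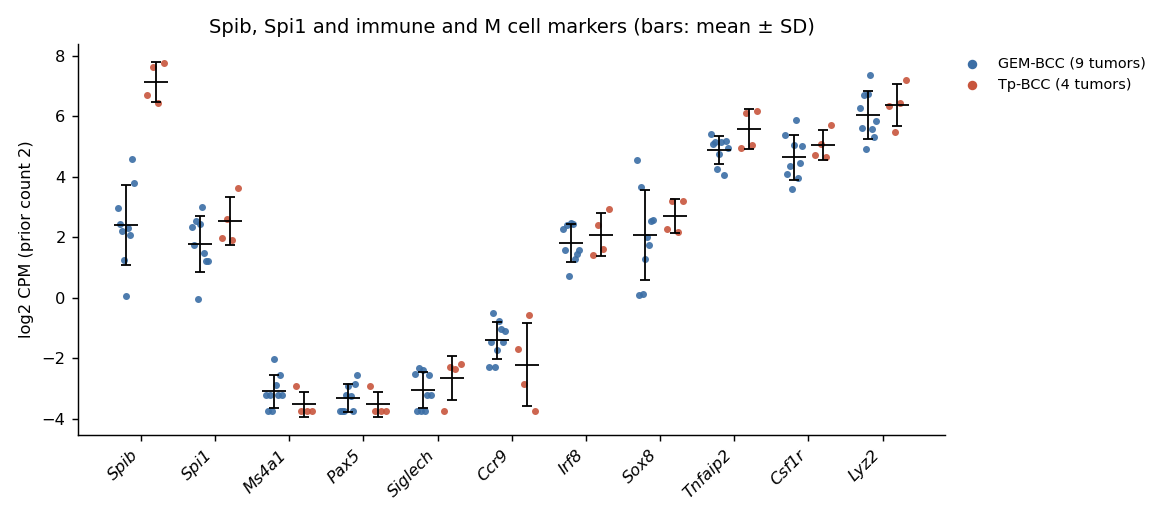
Log2 CPM (prior count 2) of Spib and Spi1 beside markers of B cells (Ms4a1, Pax5), plasmacytoid dendritic cells (Siglech, Ccr9, Irf8), M cells (Sox8, Tnfaip2) and macrophages (Csf1r, Lyz2) in each GEM-BCC tumor (blue, 9) and Tp-BCC tumor (red, 4), with black bars for the mean ± SD. Among the genes plotted, Spib alone separates the models, while Bst2 of the plasmacytoid dendritic cell list, not plotted, did not overlap between them either. The points of Ms4a1, Pax5 and Siglech near the foot of the plot stand for 6 counts or fewer.

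Neighbors of Spib on chromosome 7 were compared because reads and copy number can be shared along a chromosome. Gene order was taken from RefSeq, and none of the 20 nearest tested genes, 10 on each side, overlapped Spib. Of these 20 genes, 2 rose and 2 fell, where 11.1% of all tested genes rose and 8.35% fell. Their median log2 fold change was 0.18, against −0.03 over all tested genes. Pold1, the catalytic subunit of DNA polymerase delta, lies 0.7 kb away and rose by 1.29 (SE 0.281, edgeR adjusted p = 0.00558). It ranged from 44.5 to 141 CPM in GEM-BCC, highest in GEM8, and was 135, 247, 131 and 294 CPM in TP1 to TP4, so that the groups overlapped. Mybpc2, on the other side at 1.3 kb and named after its values were seen, had a log2 fold change of 1.03 (SE 0.534, edgeR adjusted p = 0.184). Napsa, an aspartic protease, rose by 1.60 (SE 0.515, edgeR adjusted p = 0.0410), from a median of 0.744 CPM to 3.05 CPM. Klk5, a protease of the cornified layer, fell by 2.97 (SE 0.961, edgeR adjusted p = 0.0418), and Myh14, a nonmuscle myosin, fell by 1.13 (SE 0.335, edgeR adjusted p = 0.0277). Whether copy number differed was not tested. The call of Pold1 held with any single tumor left out. That of Napsa was lost with library sizes alone (adjusted p = 0.0618) and without GEM1, GEM3, GEM7, GEM8, GEM9, TP1, TP2 or TP4 (0.0524 to 0.163). That of Klk5 was lost after removal of the GC trend (limma adjusted p = 0.0953), without any single Tp-BCC tumor and without GEM4, GEM5, GEM6, GEM7 or GEM9 (0.0518 to 0.104). That of Myh14 was lost without TP1, TP2 or TP3 (0.0520 to 0.0761).

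**Figure D3:**
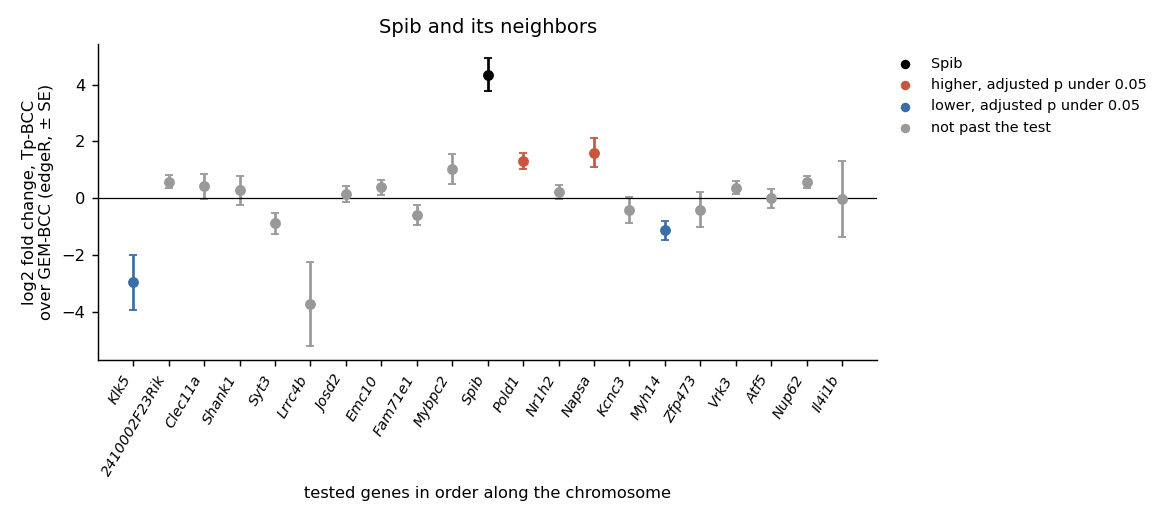
Log2 fold change (Tp-BCC over GEM-BCC, edgeR, ± SE) of Spib (black) and of the 10 nearest tested genes on each side, in their order along chromosome 7, with genes past the test in red (higher) or blue (lower) and the others in gray. Spib stands at 4.34, while its neighbors lie between −3.74 and 1.60.

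Across the 7 GEM-BCC mice, with tumors of a mouse averaged, the genes whose log2 CPM was most like that of Spib were Gjb6 (Pearson r = 0.977), Pknox1 (0.965), Trub1 (0.936), Adat1 (0.935) and Aldh1a7 (0.934), out of the 10347 tested genes whose log2 CPM averaged 3 or more. This likeness is a description over 7 mice that share depth and batch, and 16 genes reached an r of 0.9. Among 10347 genes some would reach it over 7 mice by chance, and how many was not tested. The likeness rests on averages per mouse, and the tumors as separate points were not compared. In the mouse of GEM7 and GEM8, Gjb6 was 239 and 81.8 CPM, whereas Spib was 4.10 and 24.0 CPM. Pknox1, Trub1, Adat1 and Aldh1a7 were higher in GEM8 than in GEM7, as Spib was. Gjb6, a connexin of keratinocyte gap junctions, was 37.0 to 251 CPM in GEM-BCC (median 107) and 32.7, 30.02, 36.6 and 23.6 CPM in TP1 to TP4, below every GEM-BCC tumor. It fell by 2.11 (SE 0.481, edgeR adjusted p = 0.00720), opposite to the difference in Spib. Pknox1, a homeobox factor, Trub1, a pseudouridine synthase, and Adat1, a tRNA deaminase, had log2 fold changes of −0.02, −0.09 and 0.04 (edgeR adjusted p = 0.947, 0.795 and 0.925). Aldh1a7, an aldehyde dehydrogenase, had 1.37 (SE 0.491, edgeR adjusted p = 0.0625), and passed in DESeq2 (adjusted p = 0.0346), after removal of the GC trend (limma, 0.00824) and without GEM9 (0.0201) or TP4 (0.0396). Spib itself showed no relation past the test with Spi1, Elf3 or the B cell, plasmacytoid dendritic cell and M cell lists over these mice (r of −0.511 to 0.0897, exact permutation p of 0.235 to 0.906, adjusted over 14 relations 0.659 to 0.906). The scores of these lists held 3, 10 and 8 tested genes, without Ms4a1, Pax5, Siglech or Gp2. Several of the genes held are also made by other cells, so the scores cannot show whether Spib goes with those cell types.

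Spi1 ranged from 0.890 to 7.87 CPM in GEM-BCC (median 3.31) and was 3.89, 6.04, 3.71 and 12.2 CPM in TP1 to TP4. The groups overlapped, with GEM4 lowest and TP4 highest, and the log2 fold change was 0.71 (SE 0.478). Spi1 tracked macrophage markers within GEM-BCC. Over the 7 mice, it correlated with the mean of 21 macrophage and myeloid markers at r = 0.931 (exact 2-sided permutation p = 0.00397, adjusted p = 0.0347) and rho = 0.893 (exact p = 0.0123, adjusted p = 0.0574). Without the 2 mice farthest from the median of Spi1 (those of GEM4 and GEM9) r was 0.926. With any 1 mouse left out r stayed between 0.850 and 0.958, and the adjusted exact permutation p over the remaining 6 mice missed 0.05 in 5 of 7 such fits, at up to 0.149. In bulk tumors such as these, fewer cells of a type and less RNA per cell cannot be told apart.

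Between the models, 1 of the 21 macrophage genes rose and none fell, where 11.1% of all tested genes rose and 8.35% fell. The median log2 fold change of the list was 0.04, and 0 passed without TP2 or without TP4. The gene that rose was Cd68, a lysosomal protein of macrophages chosen after its values were seen (1.31, SE 0.392, edgeR adjusted p = 0.0292). Lyz2, the lysozyme of myeloid cells, had a log2 fold change of 0.25 (SE 0.407, edgeR adjusted p = 0.693), and Csf1r, the receptor that macrophages need to survive, 0.29 (SE 0.374, edgeR adjusted p = 0.607). Both changed sign without TP4. The list's summed CPM was 97.5 to 447 over GEM-BCC tumors and 210 to 410 over Tp-BCC tumors. By flow cytometry, the study reported smaller percentages of tumor-associated macrophages and of polymorphonuclear myeloid-derived suppressor cells in Tp-BCC. Marker RNA of bulk tumors is another measure than cell percentages, and they were not compared here.

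Ehf, a factor of simple and stratified epithelium, was 0.658, 0.690, 0.0949, 4.32, 5.20, 2.60, 4.71, 0.383 and 2.17 CPM in GEM1 to GEM9, which rest on 3 to 182 counts. In TP1 to TP4 it had 0, 2, 1 and 1 counts. At 3 counts in each Tp-BCC library in place of these, its mean was at least 12.1-fold lower than in GEM-BCC. GEM3, at 3 counts, lay within the range of the Tp-BCC tumors, so the groups overlapped. The fitted edgeR log2 fold change of −5.08 (SE 1.18) is not a bound. In limma, on log2 CPM, it was −3.46 without the GC correction and −3.17 (SE 0.827) with it.

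Elf5, a factor of glandular epithelium and hair follicles, was the rarest member in GEM-BCC, with 2, 0, 0, 65, 18, 15, 23, 2 and 13 counts in GEM1 to GEM9. The table has no value for it in Tp-BCC, and no fold is given. Elf3, which acts late in keratinocyte differentiation, ranged from 0.197 to 5.60 CPM in GEM-BCC (median 0.614, highest in GEM2). In TP1 to TP4 it had 2, 5, 0 and 7 counts (0.118, 0.321, 0 and 0.50 CPM), which overlapped the lower GEM-BCC tumors. Its log2 fold change was −2.46 (SE 1.04).

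These epithelial factors were among the most variable genes of GEM-BCC, with an SD of log2 CPM above that of 98.1% (Ehf), 97.9% (Elf5) and 96.1% (Elf3) of tested genes. Tumors of the same mouse differed as well. GEM3 had 0.137 times the Ehf and 0.0735 times the Elf3 of GEM2, and GEM8 had 0.0814 times the Ehf, 0.121 times the Elf3 and 0.0873 times the Elf5 of GEM7. In each of these mice, 1 tumor was low in both Ehf and Elf3.

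Keratinocyte differentiation genes followed Ehf and Elf5 across the GEM-BCC mice. The score averages the log2 CPM of 21 tested genes, each centered on its mean over the mice, and correlated with Ehf at r = 0.885 (exact 2-sided permutation p = 0.00813, adjusted p = 0.0354) and rho = 0.929 (exact p = 0.00675, adjusted p = 0.0472). For Elf5 r was 0.891 (exact p = 0.00496, adjusted p = 0.0347) and rho was 0.964 (exact p = 0.00278, adjusted p = 0.0389). Elf3, in contrast, had an r of 0.165 with the score (exact permutation p = 0.713, adjusted p = 0.832), a difference from the other factors that was not tested. Without the 2 mice farthest from the median r was 0.681 for Ehf and 0.701 for Elf5. With any 1 mouse left out r was 0.825 to 0.968 for Ehf and 0.826 to 0.973 for Elf5, and the adjusted exact permutation p missed 0.05 in 5 of 7 such fits for each, at up to 0.165 and 0.156.

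**Figure D4:**
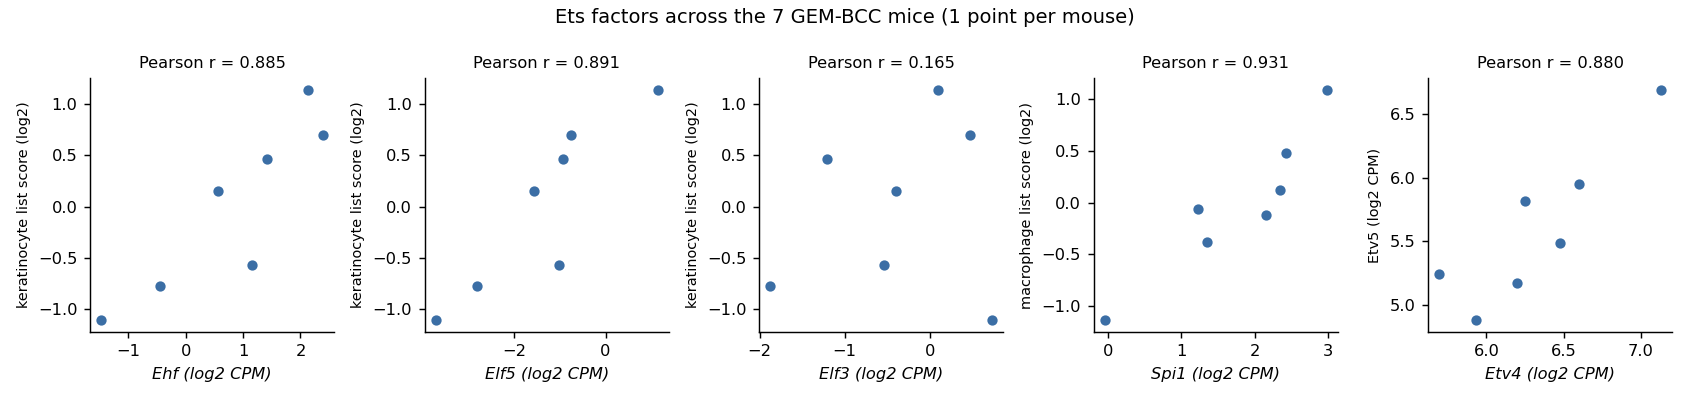
Each point is 1 of the 7 GEM-BCC mice, with the log2 CPM of Ehf, Elf5, Elf3, Spi1 or Etv4 on the horizontal axis and, on the vertical axis, the score of the keratinocyte list (log2, first 3 panels), the score of the macrophage list (log2) or the log2 CPM of Etv5. Points climb together for Ehf, Elf5, Spi1 and Etv4, and are scattered for Elf3 (r = 0.165).

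Between the models, 9 of the 21 tested keratinocyte differentiation genes fell and 1 rose, where 8.35% of all tested genes fell and 11.1% rose. The median log2 fold change of the list was −1.88. Under a stricter filter (10 counts in at least 10 tumors), which left fewer genes to test, 5 passed. Grhl3, Ovol1 and Cldn4 were not tested there, with at most 6, 2 and 4 counts in any Tp-BCC tumor. The main filter let these genes in through their GEM-BCC counts alone, so their p-values below are given as description. Grhl3, a grainyhead factor of the epidermal barrier, fell by 4.74 (SE 0.836, edgeR adjusted p = 0.00133), from 1.15 to 10.9 CPM in GEM-BCC to 0.120 to 0.353 CPM in Tp-BCC. Ovol1, a zinc finger factor that restrains keratinocyte growth, had 22 to 219 counts in GEM-BCC but only 1 or 2 in each Tp-BCC tumor. At 3 counts in each Tp-BCC library it was at least 17.3-fold lower (edgeR adjusted p = 0.00203). Cldn4, a tight junction claudin, fell by 6.61 on the fitted scale (SE 1.37, edgeR adjusted p = 0.00412), from 11 to 701 counts to 0 to 4. Dsg1a, a desmosomal cadherin of the upper epidermis whose reads may be divided with near copies of the gene, fell by 2.61 (SE 0.531, edgeR adjusted p = 0.00360). The gene that rose was Klf4, a zinc finger factor of barrier formation (1.57, SE 0.190, edgeR adjusted p = 5.72e-05), from 42.6 to 79.9 CPM to 156 to 247 CPM. Sbsn, a secreted protein of the suprabasal layers, had a log2 fold change of −0.76 (SE 0.453, edgeR adjusted p = 0.250, and 0.0482 without GEM3). The list's summed CPM was 269 to 1180 over GEM-BCC tumors, and the 363 to 482 over Tp-BCC tumors lay within that range. Ehf, Elf3 and Elf5 were thus low or without a value in the Tp-BCC tumors, in which 9 of the 21 listed genes fell. The part of the factors in the level of these genes, or the reverse, was not tested.

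Ets1 was 16.8 to 55.1 CPM in GEM-BCC (median 32.6) and 68.1, 59.0, 72.1 and 29.3 CPM in TP1 to TP4. Of the Tp-BCC tumors 3 lay above every GEM-BCC tumor, while TP4 lay within their range, and the log2 fold change was 0.78 (SE 0.286). Ets1 is made in endothelium and T cells, and markers of both were set beside it. Of 14 endothelial markers, 8 rose and none fell, where 11.1% of all tested genes rose and 8.35% fell. The markers had a median log2 fold change of 1.16, and without TP4 5 of them passed. Eng, a TGF-beta co-receptor, rose by 2.01 (SE 0.266, edgeR adjusted p = 0.000132), and Cdh5, the cadherin of endothelial junctions, by 1.29 (SE 0.222, edgeR adjusted p = 0.00116). Pecam1 (CD31) had a log2 fold change of 0.12 (SE 0.282, edgeR adjusted p = 0.788) and changed sign without TP3. The list's summed CPM was 205 to 482 over GEM-BCC tumors and 665 to 1106 over Tp-BCC tumors, so that the groups did not overlap, and its part in the level of Ets1 was not tested.

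T cell receptor genes were rare, with at most 3 counts of Cd3d, Cd3e and Cd3g in any Tp-BCC tumor and at most 21 in any GEM-BCC tumor. Of 5 tested T and NK cell markers, Thy1, which fibroblasts also make, rose by 1.23 (SE 0.320, edgeR adjusted p = 0.0149, and 0.0707 without TP2 or 0.0653 without TP4), and Lck, a kinase of the T cell receptor, had a log2 fold change of −0.11 (SE 0.344, edgeR adjusted p = 0.851). The list's summed CPM was 121 to 414 over GEM-BCC tumors and 338 to 692 over Tp-BCC tumors, nearly all of it Thy1. Over the GEM-BCC mice Ets1 had an r of 0.253 with the endothelial score (exact permutation p = 0.602, adjusted p = 0.832) and of −0.321 with the T and NK cell score (exact permutation p = 0.489, adjusted p = 0.832).

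Ets2 was the steadiest member in Tp-BCC, at 421 to 971 CPM in GEM-BCC (median 529, highest in GEM8) and 489, 764, 465 and 594 CPM in TP1 to TP4. Its log2 fold change was −0.05 (SE 0.247), and its SD of log2 CPM of 0.325 in Tp-BCC was larger than that of only 18% of tested genes. Elf1, a factor of blood cells that many tissues make, was 39.6 to 90.9 CPM in GEM-BCC (median 68.6) and 53.6, 23.7, 58.7 and 8.21 CPM in TP1 to TP4, with a log2 fold change of −0.87 (SE 0.397). TP2 and TP4 lay below every GEM-BCC tumor, whereas TP1 and TP3 lay within the range. The gap between these pairs was −2.0 on the log2 scale and −0.22 after the GC trend had been removed.

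Etv4 was 49.5 to 140 CPM in GEM-BCC (median 76.1) and 53.5, 107, 48.8 and 108 CPM in TP1 to TP4, and Etv5 21.4 to 103 CPM (median 44.8) and 41.3, 80.9, 41.2 and 80.1 CPM. The groups overlapped for both, with log2 fold changes of −0.02 (SE 0.315) and 0.27 (SE 0.349). GEM1 had the most of both genes. TP2 and TP4 exceeded TP1 and TP3 by 1.07 for Etv4 and 0.96 for Etv5 on the log2 scale, and after the GC trend had been removed by 0.19 and 1.05. In the mouse with GEM2 and GEM3, GEM3 had 2.16 times the Etv4 and 2.83 times the Etv5 of GEM2.

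Etv4 and Etv5 varied together across the GEM-BCC mice, with r = 0.880 (exact 2-sided permutation p = 0.0101, adjusted p = 0.0354) and rho = 0.857 (exact p = 0.0238, adjusted p = 0.0833). Without the 2 mice farthest from the median of Etv4 r was 0.817. With any 1 mouse left out r was 0.706 to 0.933, and the adjusted exact permutation p missed 0.05 in 6 of 7 such fits, at up to 0.384 without the mouse of GEM1. Neither showed a relation past the test with the score of 16 Fgf and Erk feedback genes (r = 0.178 for Etv4 and 0.351 for Etv5, exact permutation p = 0.706 and 0.447, adjusted p = 0.832 for both). Between the models 3 genes of that list rose and 1 fell, where 11.1% of all tested genes rose and 8.35% fell. The median of the list was −0.06, and 2 genes passed without GEM7 or TP4 and 1 without TP2. Ccnd1 (cyclin D1) rose by 0.86 (SE 0.204, edgeR adjusted p = 0.00957), from 445 to 752 CPM to 769 to 1319 CPM (adjusted p = 0.0528 without TP2), and Spred1, an inhibitor of Ras signaling, had a log2 fold change of −0.12 (SE 0.336, edgeR adjusted p = 0.827). Dusp4 and Spred2 (log2 fold changes of 0.94 and 1.23, SE 0.281 and 0.399, edgeR adjusted p = 0.0285 and 0.0418) and Dusp5 (−1.94, SE 0.451, edgeR adjusted p = 0.00812), all inhibitors of this pathway, were named after their values were seen.

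Of the other 17 Ets factors in the table, 12 could be tested, and 2 rose and 1 fell. Of all tested genes, 11.1% rose and 8.35% fell, and nothing about the family is read from counts this small. Etv1, of the Pea3 branch, rose by 2.25 (SE 0.529, edgeR adjusted p = 0.00872), from 0.182 to 2.00 CPM in GEM-BCC (median 0.894) to 6.12, 3.15, 7.48 and 1.29 CPM in TP1 to TP4. TP4 lay within the GEM-BCC range. Elk3, a ternary complex factor that works with serum response factor, rose by 0.95 (SE 0.199, edgeR adjusted p = 0.00427), from 12.7 to 22.6 CPM to 37.3, 46.5, 29.3 and 33.8 CPM, with no overlap. Elk4, of the same subfamily, fell by 1.48 (SE 0.487, edgeR adjusted p = 0.0438), from 19.3 to 112 CPM to 11.5 to 22.6 CPM, and missed the threshold with any single Tp-BCC tumor left out (adjusted p of 0.0713 to 0.114), without GEM1, GEM4, GEM7 or GEM9 (0.0539 to 0.0671) and after removal of the GC trend (limma adjusted p = 0.103). Elk1, the third of that subfamily, had a log2 fold change of 0.52 (SE 0.307, edgeR adjusted p = 0.244), and the difference among the 3 was not tested.

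The remaining factors did not pass the test. Fli1 and Erg, factors of endothelium and blood, had log2 fold changes of 0.57 and 0.00 (SE 0.352 and 0.486, edgeR adjusted p = 0.268 and 0.996), and Erg differed 6.08-fold between GEM3 and GEM2. Fli1 (0.84) and Etv6 (0.60) passed after the GC trend had been removed (limma adjusted p = 0.0304 and 0.0367), as did Elk3 and Etv1, in a fit in which 29.2% of all genes passed, against 11.1% and 8.35% in the higher and lower direction in edgeR. Gabpa, the Ets factor of genes for mitochondria, had 72.6, 14.1, 87.9 and 7.78 CPM in TP1 to TP4 against 37.9 to 80.1 CPM in GEM-BCC, so that its log2 fold change of −0.30 (SE 0.465, edgeR adjusted p = 0.673) averages over pairs of tumors that differed by 2.92. Erf (0.15), Elf2 (−0.25), Elf4 (0.06), Etv3 (−0.53) and Etv6 (0.39) had edgeR adjusted p-values of 0.753, 0.402, 0.881, 0.125 and 0.221, and Etv3 passed without GEM3 (0.0330). The signs of Erg, Erf, Elf2, Elf4 and Gabpa depended on the scaling, the GC correction or a single tumor. Spic, Spdef, Etv2 and Etv3l had at most 10 counts in any tumor, and Fev had no value in Tp-BCC.

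**Figure D5:**
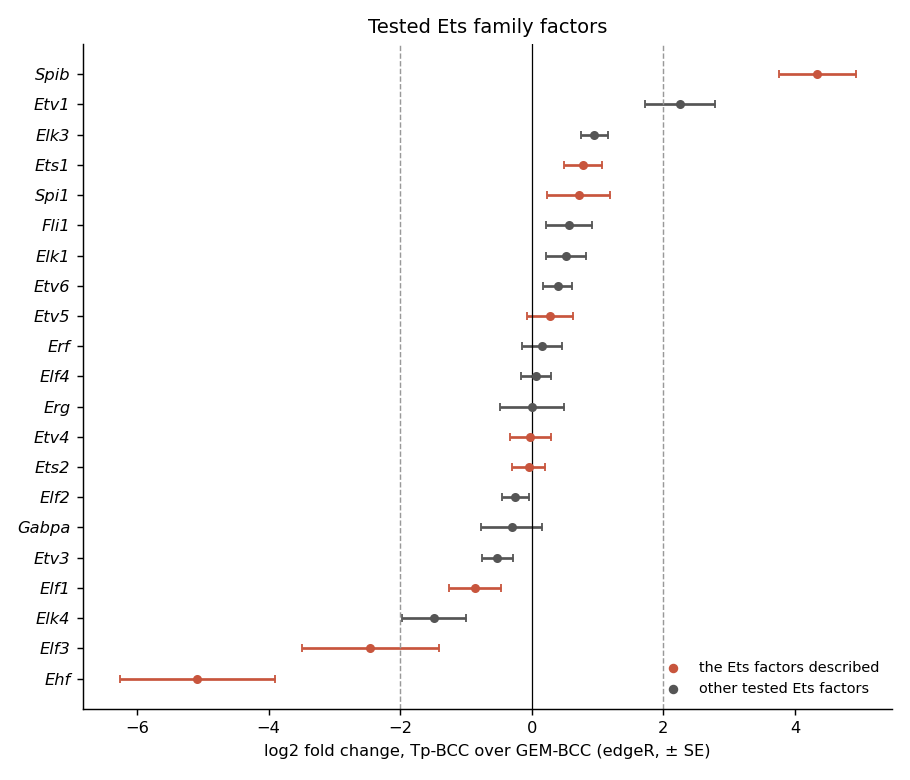
Log2 fold change (Tp-BCC over GEM-BCC, edgeR, ± SE) of the 21 Ets factors that could be compared, with the members in red, the others in gray, and dashed lines at a log2 fold change of 2 in either direction. Spib (4.34) and Etv1 (2.25) lie beyond the line on the right, Ehf (−5.08) and Elf3 (−2.46) beyond that on the left.

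By RefSeq order, several family members are next to each other on a chromosome. Ehf and Elf5 on chromosome 2 lie 108.8 kb apart. In GEM-BCC the highest counts of both were in GEM4 (131 of Ehf and 65 of Elf5), GEM5 (182 and 18) and GEM7 (148 and 23). Their relation to each other was not tested. Ets1 and Fli1 on chromosome 9, 92.8 kb apart, had log2 fold changes of 0.78 and 0.57, and Ets2 and Erg on chromosome 16, 115.8 kb apart, of −0.05 and 0.00. Wbp4 overlaps Elf1 by that annotation, and the counting was set to use strand.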

How the data were processed

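Poly(A) RNA of 13 tumors was sequenced. According to the study's methods, reads were cleaned, aligned with Bowtie2 2.3.4.3 to GRCm39 and counted with RSEM 1.3.1 in strand-specific mode. The deposited values are RSEM expected counts per gene, which the authors neither rounded nor normalized. The members and gene lists were chosen with earlier results of these data known.

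Counts were rounded. Genes valued in all 13 tumors that reached 10 counts in 4 tumors or more (14390) were compared with edgeR 4.0.16 in R 4.3.3 (TMM, robust quasi-likelihood F test, Benjamini-Hochberg adjustment over all tested genes). Log2 CPM used a prior count of 2. Relations across mice used exact 2-sided permutation over pairings. List scores are means over tested genes. One listed gene is not reported here by name. Named besides the members were the tested other Ets factors, list genes past the call rule (up to 4) and the 2 most abundant others, neighbors of Spib past the test and the 5 genes most like Spib. GENCODE vM21 and RefSeq annotate GRCm38 and gave only lengths, GC content (98.3% of tested genes), gene order (99.9%) and promoters. Alternatives were other scalings and filters, DESeq2 1.42.0, sums of counts per mouse, non-robust dispersions, leaving out each tumor or mouse and a GC correction with limma 3.58.1 (lowess, span 0.3), added after the data had been seen. Scripts were tested on simulated data. P-values between models measure the spread between tumors, which are not all independent within a model.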

Additional observations from a re-analysis of the deposited data

Results flagged for a closer look

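Among 43 sets of log2 CPM values, each holding 1 tested Ets factor (or Elf5) in 1 model, 2 held a tumor that lay far from the others of its model by Dixon's test. About 1 in 20 such sets does so by chance. Elf2 in TP4 was at a log2 CPM of 5.43, while the next Tp-BCC tumor was at 6.29 and the gap took 0.918 of the range of the 4 tumors. Etv3 in GEM3 was at a log2 CPM of 5.20, while the next GEM-BCC tumor was at 5.84, a gap of 0.557 of the range of the 9 tumors. Neither gene is among the 10 described factors, and none of those had such a tumor in either model.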

How the results depend on the processing

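No paired analysis was possible because tumor names give no number that the models share. As the members were chosen on this contrast, their values here are descriptions and support nothing. The log2 fold change of Spib was 4.07 (without TP4) to 4.80 (without GEM8). Under the stricter filter (10 counts in at least 10 tumors) Ehf was not tested, so that 1 member passed the call rule and 1 an adjusted p under 0.05 (17.5% of all genes in that fit), and 5 keratinocyte genes passed. After removal of the GC trend, 29.2% of all genes had an adjusted p under 0.05, and with them 4 members (Spib, Ets1 and, with 0 to 7 counts per Tp-BCC tumor, Ehf and Elf3), 2 macrophage, 1 plasmacytoid dendritic cell and 3 M cell markers. DESeq2 gave 3 macrophage and 2 M cell markers, and library sizes alone 2 M cell markers. With 1 tumor left out, macrophage markers past the test numbered 0 (without TP2 or TP4) to 2, plasmacytoid dendritic cell markers 0 (without TP4) to 2, M cell markers 1 to 2, T and NK cell markers 0 (without TP2 or TP4) to 2, endothelial markers 5 (without TP4) to 8 and Fgf and Erk feedback genes 1 (without TP2) to 4. The cause was not tested.

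Signs changed for genes near 0. Erg was −0.011 under DESeq2 size factors, −0.0053 under the stricter filter, −0.0153 with no filter and −0.0112 in DESeq2. Elf4 was −0.0443 with library sizes alone and Pknox1 0.0247 with counts summed per mouse. With the GC trend removed Erf was −0.20, Elf2 0.0343, Spred1 0.12 and Trub1 0.26. With 1 tumor left out the log2 fold changes ranged from −0.22 to 0.24 (Erg), −0.21 to 0.36 (Erf), −0.11 to 0.20 (Elf4), −0.83 to 0.0345 (Gabpa), −0.12 to 0.49 (Lyz2), −0.0401 to 0.50 (Csf1r), −0.0877 to 0.72 (Tcf4), −0.44 to 0.10 (Lck), −0.0017 to 0.30 (Pecam1), −0.43 to 0.16 (Spred1), −0.54 to 0.0193 (Krt5), −0.0942 to 0.0367 (Pknox1) and −0.0567 to 0.13 (Adat1).

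Of the relations across mice, Ets1 with the endothelial score had r = −0.254 with 9 tumors as separate points, and Spib with the M cell score r = −0.0057 with library sizes alone. With 1 mouse left out, r ranged from 0.850 to 0.958 (Spi1 and macrophage markers), 0.825 to 0.968 (Ehf and keratinocyte genes), 0.826 to 0.973 (Elf5 and keratinocyte genes), 0.706 to 0.933 (Etv4 and Etv5), −0.196 to 0.698 (Elf3 and keratinocyte genes), −0.784 to 0.414 (Spib and B cell markers), −0.386 to 0.400 (Spib and M cell markers), −0.593 to 0.271 (Spib and Spi1), −0.544 to 0.373 (Etv4 and Fgf genes) and −0.267 to 0.707 (Etv5 and Fgf genes).

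With 4 Tp-BCC tumors from 1 lineage and 1 batch per model, the comparison cannot be carried to other Tp-BCC lineages. Counts of 3 or fewer, as for Ehf in Tp-BCC, bound a fold and do not measure it. With 7 mice, only strong correlations can pass the test over 14 relations. Removing the GC trend changed the gap between the pairs of Tp-BCC tumors for Elf1, Etv4, Gabpa and Spib more than their difference between the models.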

Other observations

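Neighbors of Elf3 on chromosome 1, counted in the same way as those of Spib and picked out after their values were seen, rose at 7 of 20 and fell at 0 of 20, with a median log2 fold change of 0.71. Over all tested genes, 11.1% rose and 8.35% fell. The counts for the neighbors of the other members were 2 or fewer higher and 5 or fewer lower, where the neighbors of Ehf and Elf5 are largely the same genes. The Elf3 count is the highest of those looked at, and its cause was not tested.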
